A study of Homo sapiens with 15 samples.

Results

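RN7SL1, RN7SL2, RN7SL3, RN7SK, RMRP and RPPH1 are 6 of the 43388 genes counted in A549 cells, a line grown from a human lung adenocarcinoma and used as a model of alveolar epithelium. They were taken by symbol, and the choice was made with earlier results of these data known. Cells had spent 72 hours in hyperoxia, at 95% oxygen, or in normoxia, at 21%. The study describes exposure with or without ATRA present, and elsewhere cells treated with it beforehand. Each oxygen level had cells with no agent in the label (2 libraries), with ethanol vehicle (2 libraries) and with all-trans retinoic acid (ATRA) at 1e-05 mM (3 libraries). That makes 14 libraries in 6 groups. All carry the genotype label WT and come from 1 cell line, and the labels do not say whether libraries of a group were separate cultures, so the p-values measure only the spread between these libraries.

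The 6 RNAs work as RNA and code for no protein, and RNA polymerase III makes them in human cells. The RN7SL genes encode 7SL RNA, the scaffold of the signal recognition particle, which brings ribosomes that make secreted and membrane proteins to the endoplasmic reticulum. RN7SK encodes 7SK RNA, which together with HEXIM proteins holds the elongation kinase P-TEFb inactive. RPPH1 is the RNA subunit of ribonuclease P, which cuts the 5′ leader from tRNA precursors, and RMRP is that of the related ribonuclease MRP, which cuts precursor ribosomal RNA.

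The 3 copies of 7SL RNA lie on chromosome 14 in RefSeq for GRCh38.p14 and are 299 bases long each. RN7SL1 and RN7SL2 differed at 4 positions (98.7% identity), RN7SL1 and RN7SL3 at 7 (97.7%) and RN7SL2 and RN7SL3 at 11 (96.3%). This likeness bears on how reads were divided among them. Of the 250 stretches of 50 bases in RN7SL1, 168 (67.2%) occur unchanged in another copy. The figure is 158 (63.2%) for RN7SL2 and 86 (34.4%) for RN7SL3. The study discarded reads under 50 nt, and between 7.83% and 8.91% of reads per library were tallied as aligning to more than 1 place. Whether such reads also entered the counts of genes is not given in the sources used here. Counts of the single copies are therefore uncertain as levels of those copies, and their sum is given as well.

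The other RNAs come from single genes. RN7SK lies at chr6:52995620-52995951 on the plus strand (332 bases), RMRP at chr9:35657750-35658019 on the minus strand (270 bases) and RPPH1 at chr14:20343071-20343411 on the minus strand (341 bases). Polymerase III genes such as RN7SK, RMRP and RPPH1 carry their promoter elements before the start, as 7SL genes do in part. The bases just upstream are shown for that reason. Sequences are from hg38, read towards the start site, 70 bases for the RN7SL copies and 250 for the others. Capitals mark any match on either strand to any of 4 motifs. The motif TATAA and the motif TATATA, which can overlap it, are forms of the TATA box. The octamer is ATTTGCAT, and the core of a cyclic AMP response element is TGACGT.
RN7SL1 upstream, chr14:49586510-49586579, plus strand: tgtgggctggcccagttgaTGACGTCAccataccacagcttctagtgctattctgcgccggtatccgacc
RN7SL2 upstream, chr14:49862850-49862919, minus strand: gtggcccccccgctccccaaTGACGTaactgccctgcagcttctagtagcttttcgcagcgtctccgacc
RN7SL3 upstream, chr14:49853915-49853984, minus strand: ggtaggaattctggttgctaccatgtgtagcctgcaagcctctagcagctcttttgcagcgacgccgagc
RN7SK upstream, chr6:52995370-52995619, plus strand: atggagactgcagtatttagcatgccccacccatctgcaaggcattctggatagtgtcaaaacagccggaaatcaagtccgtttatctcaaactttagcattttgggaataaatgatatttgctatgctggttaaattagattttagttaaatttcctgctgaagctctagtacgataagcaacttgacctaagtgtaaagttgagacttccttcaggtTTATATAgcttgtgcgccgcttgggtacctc
RMRP upstream, chr9:35658020-35658269, minus strand: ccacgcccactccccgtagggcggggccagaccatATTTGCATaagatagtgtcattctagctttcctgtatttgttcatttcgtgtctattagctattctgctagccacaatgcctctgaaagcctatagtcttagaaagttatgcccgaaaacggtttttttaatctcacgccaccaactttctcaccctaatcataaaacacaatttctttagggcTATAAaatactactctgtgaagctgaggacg
RPPH1 upstream, chr14:20343412-20343661, minus strand: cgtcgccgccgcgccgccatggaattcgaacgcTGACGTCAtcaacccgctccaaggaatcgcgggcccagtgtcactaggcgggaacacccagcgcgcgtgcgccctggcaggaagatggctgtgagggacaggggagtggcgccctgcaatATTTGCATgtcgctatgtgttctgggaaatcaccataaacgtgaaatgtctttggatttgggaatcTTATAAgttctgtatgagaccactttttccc
In windows of 300 bases (250 before the start and 50 after), TATAA matched in RN7SK, RMRP and RPPH1, in each case between bases -31 and -26 from the start, and in 20.4% of the 35116 RefSeq promoter windows. TATATA matched in RN7SK alone among the 6 (3.99% of promoter windows). The octamer matched in RMRP from -215 to -208 and in RPPH1 from -97 to -90 (1.77% of windows). TGACGT matched in RN7SL1 from -51, in RN7SL2 from -50 and in RPPH1 from -217 (7.98% of windows). These letters are a description of the windows and say nothing of binding in these cells. Their relation to the levels of the RNAs was not tested.

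Between 2642377 and 5605072 counts fell on genes per library, so that 3 counts, taken as the floor, correspond to 0.535 to 1.14 CPM (counts scaled to the same total in each library). All members were far above it, with the smallest count at 951 for RN7SL1 in the first normoxia library without agent. All 6 passed the filter on low counts, which left 15339 genes. Between 48.6% and 55.3% of reads lay on no annotated gene and 0.40% to 0.53% were ambiguous between genes. The keratin KRT8 stood at 1120 to 5742 CPM and EPCAM, another epithelial gene, at 0 to 4.79 CPM. SFTPC (alveolar type II cells) and PTPRC (blood cells) had counts in 1 library each. PECAM1 (endothelium) had counts in 3 libraries, at up to 1.01 CPM, and COL1A1 (fibroblasts) in 12, at up to 12.3 CPM. CDKN1A, a target of p53, was higher in all 7 hyperoxia libraries than in any of the 7 normoxia libraries, as a check of the oxygen labels.

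By their mean share of counts, not scaled by length, RMRP ranked 7 among all genes, RN7SL2 14, RN7SL3 17, RPPH1 19, RN7SK 22 and RN7SL1 40. Together they took between 0.236% and 2.96% of the counts on genes, with a median of 1.76% over the 14 libraries. In hyperoxia the share was 2.15% and 2.5% without agent, 1.98% and 1.75% with vehicle, and 2.38%, 2.96% and 1.78% with ATRA. In normoxia it was 0.236% and 1.74% without agent, 1.23% and 0.978% with vehicle, and 0.865%, 0.696% and 2.66% with ATRA. Of the 7 normoxia libraries, 6 lay below every hyperoxia library, the second without agent narrowly (1.74% against 1.75%), and the third ATRA library was the second highest of all.

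**Figure D1:**
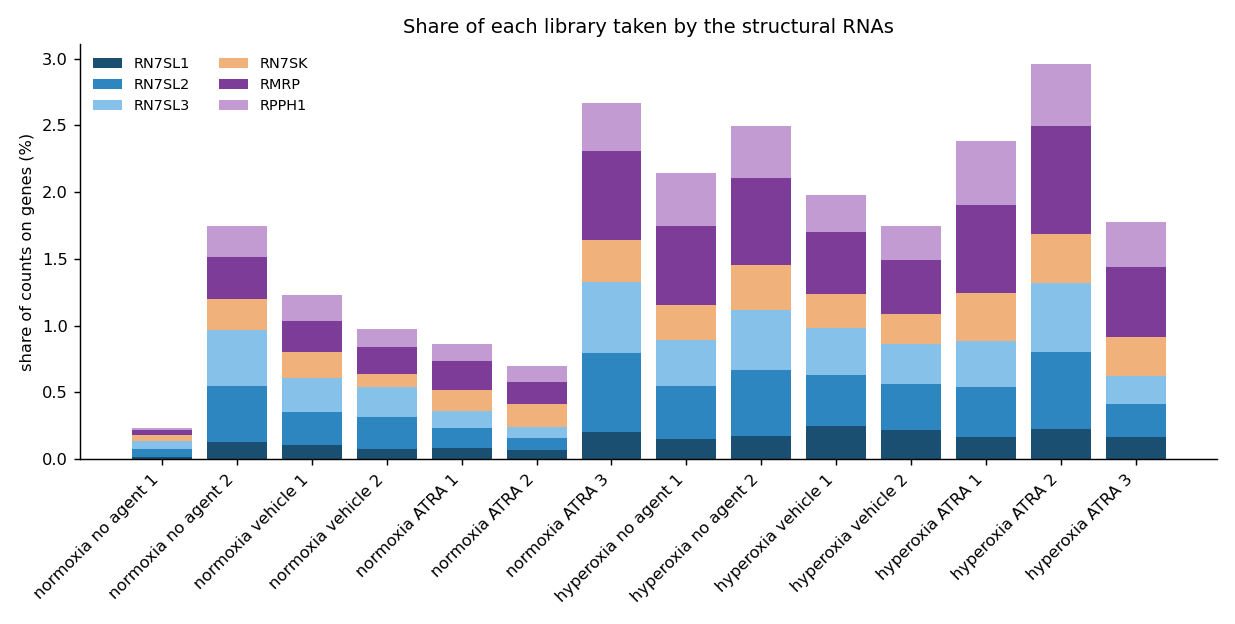
Share of counts on genes (%, linear axis from 0) in each of the 14 libraries, stacked by RNA and ordered by group. The first normoxia library without agent is the lowest at 0.236% and the second hyperoxia ATRA library the highest at 2.96%.

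The mean log2 share was 1.17 higher in hyperoxia (n = 7) than in normoxia (n = 7). A two-sided exact permutation test over 3432 groupings gave p = 0.0105 (adjusted p = 0.021 over 2 tests), and p = 0.0167 when libraries were exchanged only within no agent, vehicle and ATRA. For the sum of the RN7SL copies, which took 0.133% to 1.33% of counts, the difference was 0.99 with p = 0.0437 by the same exact test (adjusted p = 0.0437). That call was lost in 10 of 14 runs that left out 1 library, within those arms (exact permutation p = 0.0722) and among the vehicle and ATRA libraries alone (difference 0.80, exact permutation p = 0.103). In bulk RNA, fewer cells with an RNA and less of it per cell cannot be told apart, and shares show only what these RNAs took relative to the other genes.

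Each RNA was then tested with edgeR's quasi-likelihood test on all 14 libraries, with normalized counts in CPM and the standard error (SE) beside each log2 fold change. On the mean of the 3 arms, RMRP, RPPH1, RN7SL1 and RN7SK rose in hyperoxia and RN7SL2 and RN7SL3 did not pass the test. In this comparison 31.1% of all genes tested were called, and 4 of 6 members were. Leaving out the second hyperoxia library without agent left the first alone in its group. That fit raised the share of genes called and left the called members the same. All 3 hyperoxia group means lay above all 3 normoxia group means for each of the 6 RNAs. The share of all genes with such an order was not counted, nor was that for the overlap of single libraries given below. The 6 RNAs varied together by library, so they are not 6 separate observations.

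RMRP, the RNA of ribonuclease MRP, had 5778 and 6863 CPM in hyperoxia without agent, 4680 and 3984 with vehicle, and 6688, 8207 and 5081 with ATRA. In normoxia it had 375 and 3180 CPM without agent, 2265 and 1937 with vehicle, and 2223, 1630 and 6811 with ATRA. The third normoxia ATRA library lay within the hyperoxia range and the other 6 normoxia libraries below it. Group means ran from hyperoxia with ATRA (6659 ± 1563 CPM, SD, n = 3) through hyperoxia without agent (6320 ± 767, n = 2), hyperoxia with vehicle (4332 ± 492, n = 2), normoxia with ATRA (3554 ± 2836, n = 3) and normoxia with vehicle (2101 ± 232, n = 2) to normoxia without agent (1777 ± 1983, n = 2). Of these neighbours, hyperoxia without agent and hyperoxia with vehicle were further apart than both of their SDs, and the other neighbours were closer than the larger SD. RMRP had a log2 fold change of 1.26 (SE 0.37, edgeR adjusted p = 0.0161).

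RPPH1, the RNA of ribonuclease P, had 3928 and 4108 CPM in hyperoxia without agent, 2802 and 2487 with vehicle, and 4813, 4710 and 3269 with ATRA. In normoxia it had 197 and 2307 CPM without agent, 1961 and 1350 with vehicle, and 1334, 1159 and 3627 with ATRA. Again 6 of 7 normoxia libraries lay below the lowest hyperoxia library, and the exception was the third with ATRA. Group means were 4264 ± 863 CPM (SD, n = 3) with ATRA, 4018 ± 128 (n = 2) without agent and 2644 ± 222 (n = 2) with vehicle in hyperoxia, and 2040 ± 1377 (n = 3), 1252 ± 1493 (n = 2) and 1656 ± 432 (n = 2) in the same order in normoxia. RPPH1 had a log2 fold change of 1.14 (SE 0.38, edgeR adjusted p = 0.0305).

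RN7SK, the RNA that restrains P-TEFb, had 2554 and 3582 CPM in hyperoxia without agent, 2596 and 2174 with vehicle, and 3592, 3684 and 2859 with ATRA. In normoxia it had 488 and 2324 CPM without agent, 1933 and 941 with vehicle, and 1611, 1692 and 3180 with ATRA. The groups overlapped, with 5 of 7 normoxia libraries below the lowest hyperoxia library. Its group means were 3378 ± 452 CPM (SD, n = 3) with ATRA, 3068 ± 727 (n = 2) without agent and 2385 ± 298 (n = 2) with vehicle in hyperoxia, against 2161 ± 883 (n = 3), 1406 ± 1298 (n = 2) and 1437 ± 702 (n = 2) in normoxia. RN7SK had a log2 fold change of 0.83 (SE 0.27, edgeR adjusted p = 0.0282).

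RN7SL1 had 1471 and 1850 CPM in hyperoxia without agent, 2540 and 2116 with vehicle, and 1652, 2258 and 1649 with ATRA. In normoxia it had 185 and 1329 CPM without agent, 1024 and 772 with vehicle, and 864, 688 and 2113 with ATRA. Of the 7 normoxia libraries 6 lay below the lowest hyperoxia library. Unlike the other members, its highest group was hyperoxia with vehicle (2328 ± 300 CPM, SD, n = 2), above hyperoxia with ATRA (1853 ± 351, n = 3) and without agent (1660 ± 268, n = 2). Normoxia stood at 1222 ± 777 (n = 3) with ATRA, 898 ± 178 (n = 2) with vehicle and 757 ± 809 (n = 2) without agent. The log2 fold change of RN7SL1 was 1.04 (SE 0.33, edgeR adjusted p = 0.0234).

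RN7SL2 had a median of 3866 CPM in hyperoxia (2413 to 5870) and of 2286 CPM in normoxia (576 to 5992). Its log2 fold change was 0.69 (SE 0.41, edgeR adjusted p = 0.229), and 4 of 7 normoxia libraries lay below the lowest hyperoxia library. RN7SL3 had a median of 3460 CPM in hyperoxia (2031 to 5208) and of 2174 CPM in normoxia (617 to 5426), with 3 of 7 normoxia libraries below every hyperoxia library. The log2 fold change of RN7SL3 was 0.57 (SE 0.40, edgeR adjusted p = 0.315). When the counts of the 3 copies were added before the fit, the log2 fold change of 7SL RNA was 0.71 (SE 0.39, edgeR adjusted p = 0.186), so the call for RN7SL1 was lost in the sum.

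**Figure D2:**
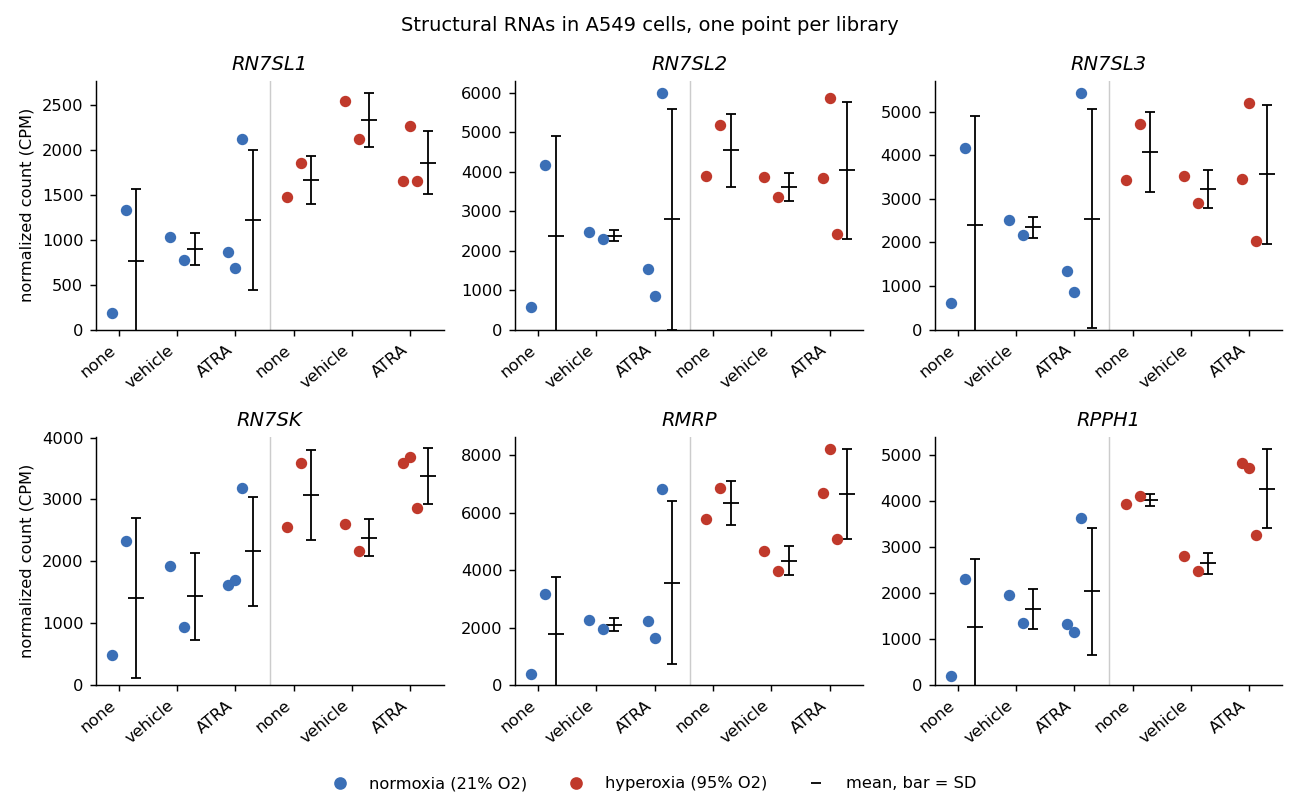
Normalized count (CPM, linear axis from 0) of each RNA, 1 point per library, by oxygen level and agent, with the group mean and SD beside the points (lower bars are cut at 0). The normoxia groups without agent and with ATRA each hold a library far from the others, and the third normoxia ATRA library sits at hyperoxia levels in every panel.

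The calls rested on few libraries. Each library was left out in turn, in 14 fits, and the call for RMRP held in 13, that for RN7SL1 in 10, for RN7SK in 7 and for RPPH1 in 6. Without the second normoxia vehicle library no member was called (adjusted p = 0.0548 for RMRP, the lowest of the 6, by edgeR). Without the third normoxia ATRA library, or without the second normoxia library without agent, all 6 were. The log2 fold changes stayed above 0 in each of these fits, between 0.95 and 1.98 for RMRP and between 0.27 and 1.19 for RN7SL3. Leaving out the first normoxia library without agent, the lowest of all, gave 0.95 for RMRP, 0.81 for RPPH1, 0.73 for RN7SL1, 0.56 for RN7SK, 0.39 for RN7SL2 and 0.27 for RN7SL3 with the same 4 called. DESeq2 on the same groups called RMRP (adjusted p = 0.0179) and RN7SK (adjusted p = 0.0378), with RN7SL1 at an adjusted p of 0.0533 and RPPH1 at 0.0645 by DESeq2.

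Within a single arm no member passed the test. The median log2 fold change over all genes was -0.10 without agent, 0.009 with vehicle and 0.013 with ATRA. Those of all 6 members were above 0 in each arm. Without agent, where 15.2% of genes were called, they ran from 0.77 (SE 0.74) for RN7SL3 to 1.83 (SE 0.69) for RMRP, whose adjusted p of 0.0868 in edgeR was the lowest. With vehicle, where 9.26% of genes were called, they ran from 0.46 (SE 0.74) for RN7SL3 to 1.38 (SE 0.60) for RN7SL1, with an adjusted p of 0.201 in edgeR. With ATRA, where 12.9% were called, they ran from 0.49 (SE 0.61) for RN7SL3 to 1.06 (SE 0.57) for RPPH1 (adjusted p = 0.268 in edgeR). The ATRA arm depends on which libraries share the estimate of the spread, since with the vehicle and ATRA libraries alone RPPH1 (1.06, adjusted p = 0.0075 in edgeR), RN7SK (0.64, adjusted p = 0.0404) and RMRP (0.90, adjusted p = 0.0416) were called there and RN7SL1 (1.38, adjusted p = 0.00409) with vehicle. More genes were called in all in that fit, 22.7% with ATRA and 17.5% with vehicle.

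No effect of ATRA on a member passed the test. In normoxia, where 0.456% of genes were called for ATRA against vehicle, the log2 fold changes of the 6 RNAs lay between 0.11 (RN7SL3, SE 0.68) and 0.76 (RMRP, SE 0.63), with an adjusted p of 1 in edgeR for each. For 5 of the 6 that sign rested on the third normoxia ATRA library, without which the values were -1.10 for RN7SL3, -0.998 for RN7SL2, -0.41 for RPPH1, -0.21 for RN7SL1 and -0.12 for RMRP, while RN7SK kept 0.20. In hyperoxia, where 0.756% of genes were called for ATRA, RPPH1 had a log2 fold change of 0.69 (SE 0.64), RMRP 0.62 (SE 0.62), RN7SK 0.50 (SE 0.46), RN7SL2 0.16 (SE 0.69), RN7SL3 0.15 (SE 0.68) and RN7SL1 -0.33 (SE 0.54). The lowest adjusted p among them was 0.939 in edgeR. The ATRA effects at the 2 oxygen levels were not shown to differ for any member, in a test that called 0.0261% of all genes. Vehicle against no agent called no member in normoxia, where it called 0% of genes in edgeR (133 genes at an unadjusted p under 0.05, and 1 gene in DESeq2), and none in hyperoxia, where it called 0.00652%. That share in hyperoxia rose steeply when the second hyperoxia library without agent was left out, which left the first alone in its group. The first had 12657 genes with a count, against 16465 to 20108 in the other labelled libraries. Its part in these calls was not tested. The ATRA and vehicle comparisons share their vehicle libraries.

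**Figure D3:**
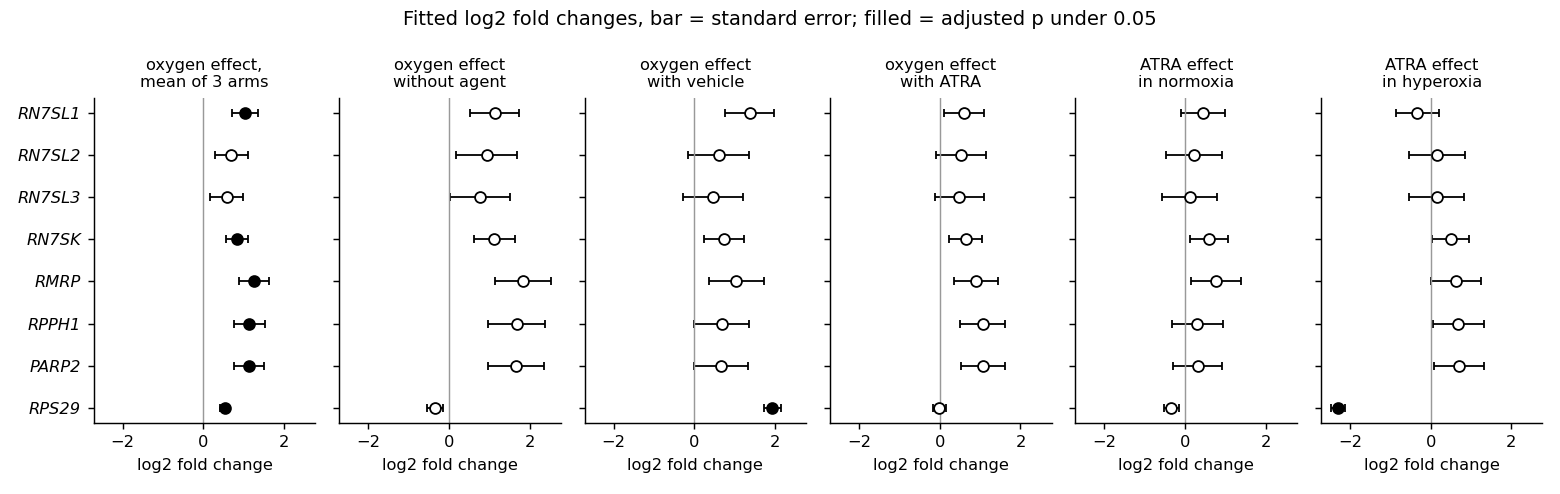
Log2 fold change with its standard error for the 6 RNAs, PARP2 and RPS29 in the 4 oxygen comparisons and both ATRA comparisons; filled points have an adjusted p under 0.05 in edgeR. RMRP, RPPH1, RN7SL1 and RN7SK are filled in the mean oxygen effect, and no member is filled in another panel.

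The single called gene for vehicle in hyperoxia was RPS29, a ribosomal protein gene whose span holds RN7SL1 on the opposite strand. RPS29 had 1560 and 1110 CPM in the hyperoxia vehicle libraries and 259 to 421 CPM in the other 12. Its log2 fold change was 2.30 for vehicle in hyperoxia (SE 0.21, adjusted p = 0.000106), 1.94 for oxygen with vehicle (SE 0.20, adjusted p = 1.5e-05) and -2.29 for ATRA against vehicle in hyperoxia (SE 0.18, adjusted p = 9.34e-06), all from edgeR. In the same libraries RN7SL2 had 1.52 and 1.59 times the counts of RN7SL1, against 2.33 to 3.14 times in 9 of the other 12 libraries and 1.24 to 1.77 times in the remaining 3, all with ATRA (the first and second in normoxia and the third in hyperoxia), where RPS29 was not high. RN7SL3 had 0.84 to 1.07 times the counts of RN7SL2 throughout. Whether reads of RPS29 entered the count of RN7SL1 was not tested.

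Other genes had counts that followed those of a member. LOC107987206, whose position could not be looked up in the RefSeq positions used here, had exactly the counts of RN7SL1 in 14 of 14 libraries. LOC105378179, a long noncoding RNA gene that spans RN7SL2, had 1.00 to 1.003 times its counts and differed by at most 16 reads. Reads credited to more than 1 gene would enter the counts on genes more than once, which was not tested. PARP2, which encodes a poly(ADP-ribose) polymerase that acts in DNA repair, starts on the opposite strand 223 bases from the start of RPPH1, and the RefSeq spans of the genes do not overlap. It ranked 5 among all genes by share and had 1.96 to 2.39 times the counts of RPPH1, with 2.39 in the first normoxia library without agent and a median of 2.04. The log2 fold change of PARP2 was 1.13 in the mean oxygen effect (SE 0.37, edgeR adjusted p = 0.0275), beside 1.14 for RPPH1. TALAM1, the antisense partner of MALAT1 and no neighbour of the members, had 1.87 to 2.01 times the counts of MALAT1. The library kit marks strand, but the strand setting of the counting is not given in the sources used here, so reads of a gene and of one on its opposite strand cannot be told apart, and values of PARP2 and RPPH1 are not independent measurements where they share reads. The other near neighbours were low. NEMF (827 bases from RN7SL3) held 4808 counts over the 14 libraries, CCDC107 (272 bases from RMRP) 822 and GSTA4 (335 bases from RN7SK) 361, against 171641 for RN7SL3, 242817 for RMRP and 134427 for RN7SK.

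**Figure D4:**
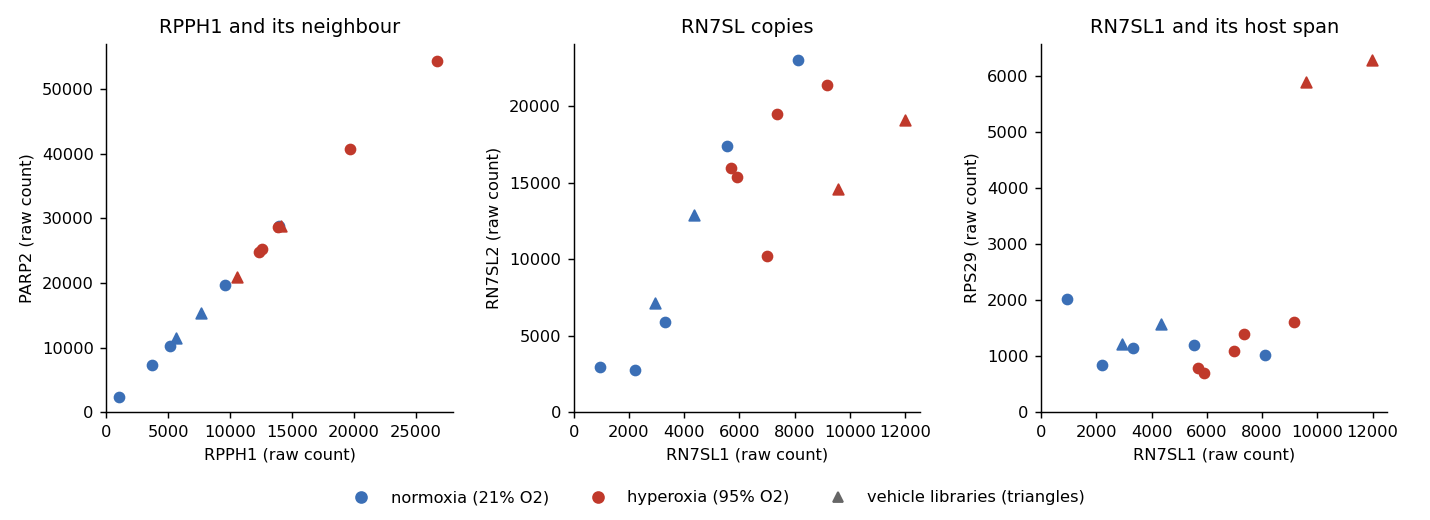
Raw counts in the 14 libraries of PARP2 against RPPH1, RN7SL2 against RN7SL1 and RPS29 against RN7SL1 (linear axes from 0; triangles are vehicle libraries). PARP2 lies along 1 line at about 2.04 times RPPH1, whereas RPS29 is high in the hyperoxia vehicle libraries alone.

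With the RN7SL copies taken singly, levels per length put RMRP highest, at a median over the 14 libraries of 16050 CPM per kilobase. RN7SL2 followed at 12060, RN7SL3 at 10610, RPPH1 at 7755, RN7SK at 7346 and RN7SL1 at 5217. Each RN7SL copy has 299 bases and RMRP has 270. Summed, the copies had a mean of 7803 CPM over the 14 libraries, not scaled by length, against 4264 for RMRP. The 7SL RNA as a whole thus stood above RMRP. The SD of log2 levels per length over the 14 libraries was 1.21 for RPPH1, 1.19 for RMRP, 1.01 for RN7SL2, 0.99 for RN7SL1, 0.96 for RN7SL3 and 0.81 for RN7SK. Within groups, the SD on the log2 scale was 0.23 to 0.52 in the hyperoxia libraries and 0.96 to 1.44 in the normoxia libraries across the 6 RNAs. RMRP and RPPH1 spanned 18.2-fold and 18.5-fold in normoxia and 2.06-fold and 1.94-fold in hyperoxia. This difference in spread was not tested.

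The members moved together by library. The first normoxia library without agent had a median log2 level of -2.86 relative to the median of the 14 libraries, and 5 of the other 6 normoxia libraries lay between -1.30 and -0.13. The exception was the third ATRA library at 0.55, with all 6 RNAs above their medians. The share of reads that did not align was lowest in the first of these (3.74%) and highest in the last (9.35%), and its part in the result was not tested. Of the 7 hyperoxia libraries, 6 had a median log2 level above 0, and the second with vehicle had -0.11.

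RMRP and RPPH1 had 0.524 to 0.866 counts of RPPH1 per count of RMRP, a wider range than that of RN7SL3 to RN7SL2. Likeness was measured as the SD of the log2 ratio over 14 libraries, for which RMRP and RPPH1 had 0.20, and among 4252 genes with a mean of at least 50 CPM. The genes most like RPPH1 were PARP2 (0.068), SNORA73B (0.40) and LOC107987206 (0.44), and those most like RMRP were PARP2 (0.18), LOC107987206 (0.40) and SNORA73B (0.42). Most like RN7SK were LOC107987206 (0.41), SNORA53 (0.42) and PARP2 (0.46), and most like the sum of the RN7SL copies were LOC105378179 (0.090), LOC107987206 (0.38) and SIRT4 (0.39). LOC107987206 repeats the counts of RN7SL1, LOC105378179 nearly repeats those of RN7SL2, and PARP2 follows RPPH1. Their places in this ranking therefore add nothing to the members' own counts. SNORA73B and SNORA53 are small nucleolar RNAs, which lie in introns of host genes. SNORA73B had 14.8 CPM in the first normoxia library without agent, 48.4 to 169 CPM in the other 6 normoxia libraries and 239 to 381 CPM in hyperoxia.

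Of 55 other short or structural RNAs listed, 28 passed the filter, and 6 rose and 1 fell in the mean oxygen effect, a smaller share than the 31.1% of all genes called. Their median log2 fold change was 0.80, against -0.03 over all genes tested. The list is mostly small nuclear, Cajal body, Y and vault RNAs, telomerase RNA and mitochondrial ribosomal RNAs, many of them with few counts. SCARNA2, a guide RNA of Cajal bodies, rose most clearly (log2 fold change 1.97, SE 0.33, adjusted p = 0.000262 from edgeR), from 3.51 to 19.9 CPM in normoxia to 29.5 to 62.4 CPM in hyperoxia with no overlap. SCARNA5 (1.33, adjusted p = 0.0035) and SCARNA21 (1.27, adjusted p = 0.00484 in edgeR) rose too. TERC, the RNA template of telomerase, which was named after its values were seen, rose by 1.10 (log2; SE 0.28, edgeR adjusted p = 0.00724). The gene that fell was BCYRN1, at a mean of 1.77 CPM. The vault RNA VTRNA1-3 (-1.59, adjusted p = 0.1445 in edgeR) and the Y RNA RNY1 (-0.41, adjusted p = 0.637 in edgeR) also lay below 0 but were not called. Of the 28 RNAs, 21 had a log2 fold change above 0. The mitochondrial ribosomal RNAs RNR1 and RNR2 were also named after their values were seen. They had log2 fold changes of -0.26 and -0.11 (adjusted p = 0.165 and 0.616 in edgeR), and took 1.86% to 4.11% and 5.30% to 10.5% of counts.

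**Figure D5:**
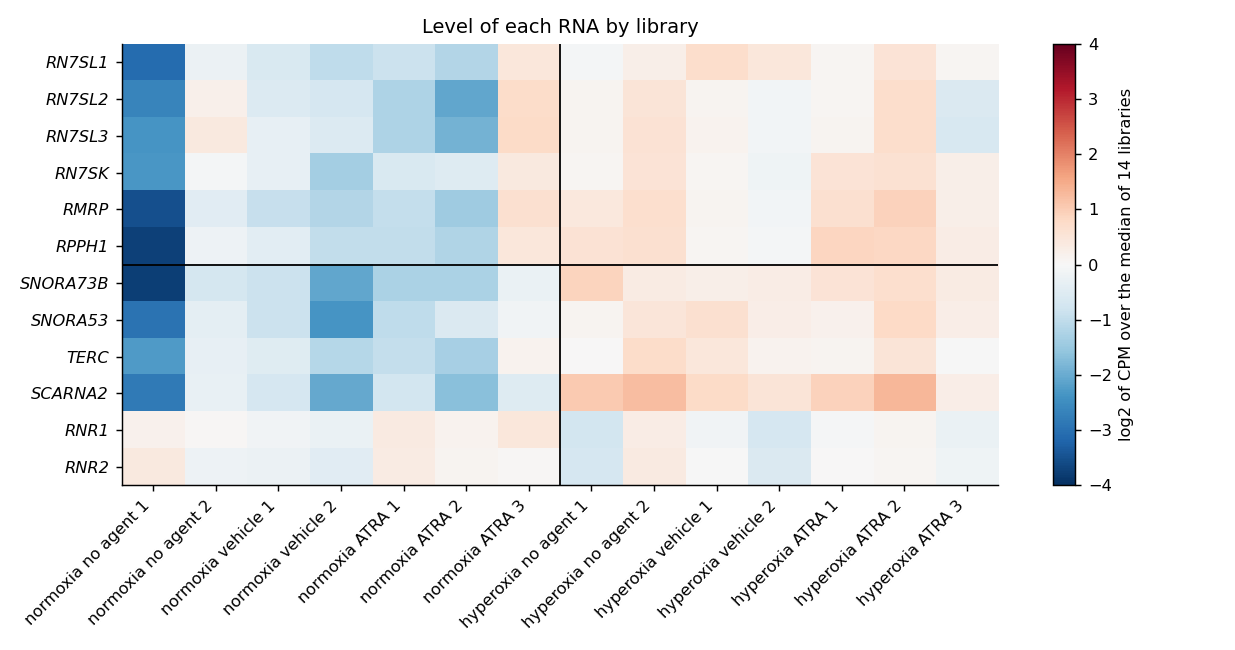
Log2 of each library's CPM over the median of the 14 libraries, for the 6 members (above the line) and 6 other RNAs, by library. The first normoxia library without agent is blue for the members and the small RNAs but not for RNR1 and RNR2, and SCARNA2 is above its median in every hyperoxia library.

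Among genes for protein partners of these RNAs, the counts called in the mean oxygen effect are to be read against the 31.1% of all genes called there. Of 8 signal recognition particle proteins and receptor subunits, 0 rose and 2 fell, a share below that of all genes. SRP54, the subunit that binds signal peptides, fell from 72.5 ± 9.56 CPM (SD, n = 7) in normoxia to 50.5 ± 16.2 in hyperoxia (log2 fold change -0.55, adjusted p = 0.0408 from edgeR). SRP14, which binds the Alu domain of 7SL RNA, fell too (-0.37, adjusted p = 0.0372 from edgeR), and SRPRA, a receptor subunit, had 0.24 (adjusted p = 0.194 in edgeR). The median of the 8 was -0.01, against -0.03 over all genes.

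Among 7 proteins of the 7SK particle and P-TEFb, 2 rose and 1 fell, a share above that of all genes by less than 1 gene. HEXIM1, which inhibits P-TEFb when bound to 7SK RNA, fell from 173 ± 26.9 CPM (SD, n = 7) to 124 ± 23.6 (log2 fold change -0.48, adjusted p = 0.00197 from edgeR). CCNT1, the cyclin of P-TEFb, rose by 0.40 (adjusted p = 0.00678) and MEPCE, which caps 7SK RNA, by 0.49 (adjusted p = 0.0148), both from edgeR. Among 11 proteins of ribonucleases P and MRP, 2 rose and 0 fell, again below the share of all genes. They were RPP25 (log2 fold change 0.68, adjusted p = 0.00411 from edgeR) and RPP25L (1.27, adjusted p = 0.0104 from edgeR), which are related to each other, and POP4, with 0.25, did not pass (adjusted p = 0.117 in edgeR).

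Of 31 genes for RNA polymerase III and its factors, 5 rose and 3 fell, with a median log2 fold change of 0.04, and this share too is below the 31.1% of all genes. POLR3E, a subunit of the polymerase, rose from 41.0 ± 4.61 CPM (SD, n = 7) to 71.8 ± 6.63 with no overlap (log2 fold change 0.81, adjusted p = 2.72e-05 from edgeR). MAF1, which represses the polymerase, rose by 0.53 (adjusted p = 0.00577 from edgeR), and SSB, which binds the ends of new polymerase III transcripts, had a log2 fold change of -0.67 (adjusted p = 0.000358 from edgeR). None of these 5 lists had a gene called for ATRA against vehicle in hyperoxia. The lowest p-values there were those of POLR3C (-0.50, adjusted p = 0.386), SNAPC3 (-0.62, adjusted p = 0.396), SRP72 (-0.42, adjusted p = 0.405), GTF3C3 (-0.70, adjusted p = 0.458), MEPCE (-0.60, adjusted p = 0.469) and SCARNA10 (0.92, adjusted p = 0.544), all from edgeR.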

How the data were processed

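RNA from A549 cells was sequenced from directional libraries. The authors trimmed reads with Trimmomatic 0.38, discarded those under 50 nt, and used HISAT2 for alignment to hg38 and HTSeq for counting by gene. They deposited raw counts, not normalized. The annotation, strand and overlap settings of the counting, and how RNA was selected before library preparation, are not given in the sources used here. Special rows (no feature, ambiguous, low quality, not aligned, not unique) were kept out of library sizes.

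Tests used edgeR 4.0.16 (R 4.3.3) with filterByExpr (minimum count 10, minimum total count 15), TMM normalization, and a quasi-likelihood model of 14 libraries in 6 groups, with calls at a Benjamini-Hochberg adjusted p under 0.05 over 15339 genes. Since arms were compared with the same libraries, each oxygen comparison borrows the spread of all groups. Shares were compared by exact permutation tests with SciPy 1.17.1. The procedure was run on simulated data in which genes varied independently, each with the same spread in every group. That simulation does not cover RNAs that move together by library or a wider spread in normoxia. The floor covers counting error only. Standard errors were derived from the log2 fold change and the edgeR test statistic, and so include the spread between libraries. Positions are from RefSeq for GRCh38.p14 and sequences from hg38, with promoter windows from RefSeq, and the letters of the RN7SL genes themselves are not reported here. Other settings were also run, namely DESeq2 1.42.0, RLE size factors, total counts, TMM without the members, RPS29 and PARP2, no filter, the 10 vehicle and ATRA libraries in 4 groups, summed RN7SL copies and leaving out each library.

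The members and the gene lists were chosen with earlier results of these data known. Genes named are the members, genes that overlap them or lie within 1000 bases, the 3 of each list with the smallest p in the mean oxygen effect and in the ATRA effect in hyperoxia, the 3 most like each RNA, and CDKN1A and MKI67 as a check of the oxygen labels; TERC, BCYRN1, RNR1, RNR2, TALAM1 and MALAT1 were added after their values were seen. One library titled hyperoxia, whose treatment label names adipogenic differentiation, entered no comparison. MKI67, a proliferation marker, had a log2 fold change of -2.59 in the mean oxygen effect (edgeR).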

Additional observations from a re-analysis of the deposited data

Results flagged for a closer look

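RPS29, whose span holds RN7SL1, was flagged because its response to ATRA differed between the oxygen levels by a direct test. Its ATRA effect in hyperoxia minus that in normoxia was -1.95 on the log2 scale (SE 0.26, edgeR adjusted p = 0.00992). The effect was -2.29 in hyperoxia and -0.34 in normoxia, where it did not pass the test (adjusted p = 1 in edgeR). The hyperoxia vehicle libraries, at 1560 and 1110 CPM, were the only libraries above 421 CPM. The call was lost in 3 of 14 fits that each left out 1 library: without the second hyperoxia ATRA library (adjusted p = 0.0778), the first hyperoxia vehicle library (0.079) or the second normoxia vehicle library (0.0896), all from edgeR, while the value stayed between -1.94 and -1.70 in those fits. No member was flagged in this way, and groups of 2 or 3 libraries are too small for a test of single libraries.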

How the results depend on the processing

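Of the 6 members, 4 were called in the mean oxygen effect, and also with RLE size factors, with total counts and with TMM computed without the members, RPS29 and PARP2. DESeq2 called 2 and the fit without a filter 6, and leaving out each library gave 0 to 6. Without the filter the standard error of RMRP shrank from 0.37 to 0.074, and 6 members were called in each oxygen arm, 3 for ATRA in hyperoxia, 2 for ATRA in normoxia, 1 in the interaction and 2 for vehicle in hyperoxia, where the filtered fit called none; the cause was not tested. Among the 10 vehicle and ATRA libraries, 3 were called for oxygen with ATRA and 1 with vehicle, where calls over all genes also rose, to 22.7% and 17.5%. Leaving out each library gave 0 to 5 members without agent, 0 to 1 with vehicle and 0 to 1 with ATRA for oxygen, and 0 in the ATRA, interaction and vehicle comparisons.

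The share of the 6 RNAs kept its direction and call in every alternative, with differences between 0.83 and 1.41 when a library was left out. The RN7SL share lost its call among the 10 libraries (0.80, p = 0.103) and within arms (0.99, p = 0.0722) by exact permutation, and ranged from 0.69 to 1.25 when a library was left out, with exact permutation p from 0.00699 to 0.0828 and the call lost in 10 of these 14 runs.

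Signs turned for values that passed no test. When a library was left out, the log2 fold change for ATRA in normoxia ranged from -0.21 to 0.74 for RN7SL1, -0.998 to 0.67 for RN7SL2, -1.10 to 0.54 for RN7SL3, -0.12 to 1.12 for RMRP and -0.41 to 0.60 for RPPH1. For ATRA in hyperoxia it ranged from -0.21 to 0.41 for RN7SL2 and -0.23 to 0.41 for RN7SL3. RN7SL3 ranged from -0.068 to 2.69 for oxygen without agent, and RPS29 from -0.074 to 0.05005 for oxygen with ATRA (0.0080 with total counts). Summing the RN7SL copies turned RN7SL1 to 0.047 for ATRA in hyperoxia and to -0.17 for vehicle in hyperoxia.

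Over all genes, ATRA in normoxia called 70 genes, against 184 in DESeq2, 187 among the 10 libraries and 166 without a filter. ATRA in hyperoxia called 116 against 307, 331 and 246, and the interaction 4 against 44, 21 and 33 and, with total counts, 6. Vehicle in hyperoxia called 1 against 5 in DESeq2 and 89 without a filter, and in normoxia 0 against 1 and 3. Leaving out each library gave 12 (without the second normoxia vehicle library) to 184 genes for ATRA in normoxia, 22 (without the first hyperoxia vehicle library) to 306 for ATRA in hyperoxia and 0 (without the second normoxia vehicle library) to 17 in the interaction, with the upper values when a hyperoxia library without agent was left out. Without the second hyperoxia library without agent, vehicle in hyperoxia called 5630 genes, oxygen without agent 7364 against 2324 and the mean oxygen effect 8128 against 4764 (2835 higher and 5293 lower, against 2380 and 2384), and in the other 13 fits at most 1, 2401 and 5624. The fit without the second hyperoxia library without agent left that group with the first alone. The first had 12657 genes with a count, against 16465 to 20108 in the other labelled libraries. No paired analysis was possible because the labels give no replicate numbers. Depth is no limit for the members, whose counts were 951 or more in each library. With 2 or 3 libraries in a group, the spread among normoxia libraries limits every comparison.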

Other observations

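The library that could not be assigned to a group is titled hyperoxia, but its treatment label names adipogenic differentiation. On the 6 RNAs it had 1.54% of its counts on genes, below the hyperoxia libraries that were assigned (1.75% to 2.96%). Its values scaled by total counts were 3768 CPM for RMRP, 3214 for RN7SL2, 2565 for RN7SL3, 2384 for RPPH1, 2186 for RN7SK and 1296 for RN7SL1. It had 2.08 times as many counts on PARP2 as on RPPH1 and 2.48 times as many on RN7SL2 as on RN7SL1. CDKN1A took 0.119% of its counts, against 0.0953% to 0.11% in the assigned hyperoxia libraries and 0.00631% to 0.0112% in normoxia.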
